A study of Mus musculus with 7 samples.

Results

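The genes described here are 9 interferon-stimulated genes of the mouse kidney: Stat2, Irf9, Irf7, Isg15, Ifit1, Ifit3, Oasl2, Mx1 and Bst2. They were taken by their symbols from a table of 17537 genes measured by RNA sequencing, and all 9 were found there. The study asked which kidney transcripts stay altered after blood glucose has been lowered in diabetic mice. It sequenced polyA-selected RNA from 7 kidneys, with 1 library per mouse and between 46456125 and 56541594 reads on listed genes. According to the labels, all mice were male C57BL/6 animals aged 8 to 10 weeks, whereas the methods of the study mention both sexes. The methods give 8 weeks as the age at the start of streptozotocin, so the kidneys came from older mice. The 3 control mice (C, replicates 2, 8 and 9) were not diabetic, and by the methods age-matched controls received sodium citrate. The 2 DM-22 mice (replicates 1 and 2) received streptozotocin, which kills the beta cells of the pancreas, on 5 days (60 mg/kg), and were studied after 22 weeks of diabetes. The 2 DM+SGLT2i mice (replicates 1 and 2) received the same injections, and from week 16 they also drank water with dapagliflozin (25 mg/kg) over 6 weeks. Dapagliflozin inhibits SGLT2, the glucose transporter of the proximal tubule, so that glucose is lost with the urine. The model is a chemical one, in which beta cells are destroyed and insulin is lacking. No control mouse with the inhibitor was sequenced among these libraries, and with 2 or 3 mice per group the p-values rest on few animals.

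Type I interferons signal through the receptor chains IFNAR1 and IFNAR2 and the kinases JAK1 and TYK2, which phosphorylate STAT2. STAT2 and IRF9 are subunits of ISGF3, a complex that binds the interferon-stimulated response element (ISRE) in the promoters of antiviral genes. IRF7 is itself induced by this complex and drives further interferon production. Many of the same genes have a low basal expression in uninfected tissue, in resident macrophages as well as in epithelium and endothelium.

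The promoters of the members were inspected first, since the ISRE is the sequence through which this program acts. RefSeq windows on GRCm38.p6, from 250 bases before to 50 bases after a transcription start, were searched on both strands for the ISRE core GAAANNGAAA, which reads TTTCNNTTTC on the other strand. Windows were given for 8 of the 9 members, with 2 windows for Irf9 and none for Mx1. The core was present in 5 of these 8 genes, in comparison with 3.99% of the 27025 genes with a window (3.44% of 32851 windows). The 5 stretches that hold it are given here as they read along the coding strand of each gene, with 20 bases on either side and the matches in capitals, because these 5 genes differ in how many cores they carry and how the cores are spaced.
Stat2, chr10:128270256-128270305, plus strand: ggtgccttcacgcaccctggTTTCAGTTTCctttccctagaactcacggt
Isg15, chr4:156200855-156200916, minus strand: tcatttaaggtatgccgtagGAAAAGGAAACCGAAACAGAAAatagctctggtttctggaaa
Ifit1, chr19:34640765-34640833, plus strand: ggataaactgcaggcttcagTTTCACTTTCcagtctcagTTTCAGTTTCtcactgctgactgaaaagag
Ifit3, chr19:34583353-34583436, plus strand: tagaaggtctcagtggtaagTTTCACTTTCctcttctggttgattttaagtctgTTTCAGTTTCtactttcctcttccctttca
Bst2, chr8:71537567-71537622, minus strand: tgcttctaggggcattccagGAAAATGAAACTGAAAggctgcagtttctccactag

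Isg15 carried 3 overlapping cores between 78 and 57 bases before the start, and Bst2 carried 2 overlapping cores between 130 and 115 bases before it. Ifit1 and Ifit3 each carried 2 separate cores, and Stat2 carried 1, which began 222 bases before the start. At least 2 cores were thus found in 4 members, whereas 0.225% of all windows hold as many. The letters were not found in the windows of Irf7, Irf9 and Oasl2, which says nothing about other positions or about looser forms of the element. With 1 mismatch allowed the count was 7 of 8 members, but 38.9% of all genes then held a match. The gamma-activated site TTCNNNGAA, a motif of interferon gamma-responsive promoters, was found in the Bst2 window alone, where it overlaps the first ISRE core by 3 bases at its end, and 9.55% of all genes hold one. These matches describe sequence and are no evidence of binding in these kidneys.

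**Figure D1:**
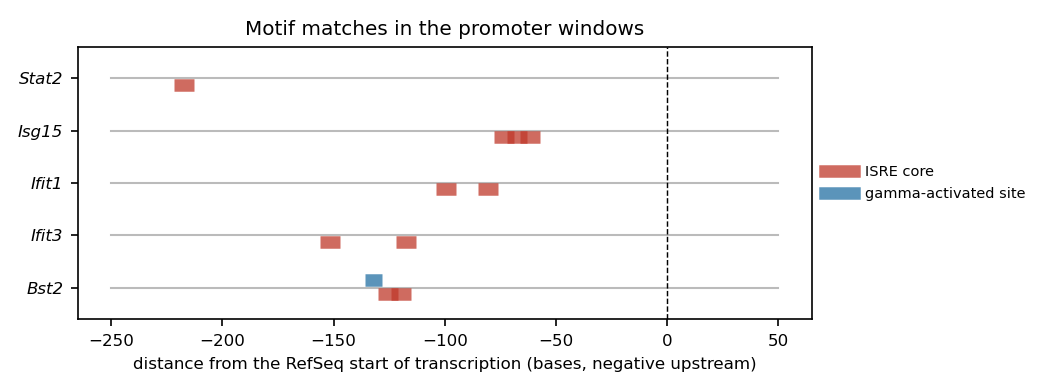
Positions of motif matches in the promoter windows of the 5 members with an ISRE core. The horizontal axis gives the distance in bases from the RefSeq transcription start (dashed line), red bars are ISRE cores and the blue bar is the gamma-activated site. All cores lie upstream of the start, between 222 and 57 bases before it.

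Expression is given as CPM, that is read counts relative to library size after the normalization of the authors. Control replicate 2 stood apart from the other controls for most members, and each comparison with controls is therefore given with and without it. The members were not expressed at the same level. Per kilobase of annotated exon, the median over the 7 libraries was highest for Bst2 (25.8 CPM per kilobase, range 8.44 to 90.2) and Ifit3 (21.6, range 9.74 to 71.6). The same length-scaled median was 7.84 for Isg15, 7.27 for Irf7, 3.88 for Ifit1, 3.62 for Irf9, 2.94 for Stat2, 2.80 for Oasl2 and 0.186 for Mx1. The ranges of neighbours in this order overlapped in every case except that of Oasl2 (lowest 0.984) and Mx1 (highest 0.315), so that most neighbouring places are not separated beyond the spread between libraries. The value of Irf7 is low for its reads because its annotated exons together cover the whole gene span of 3776 bases.

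**Figure D2:**
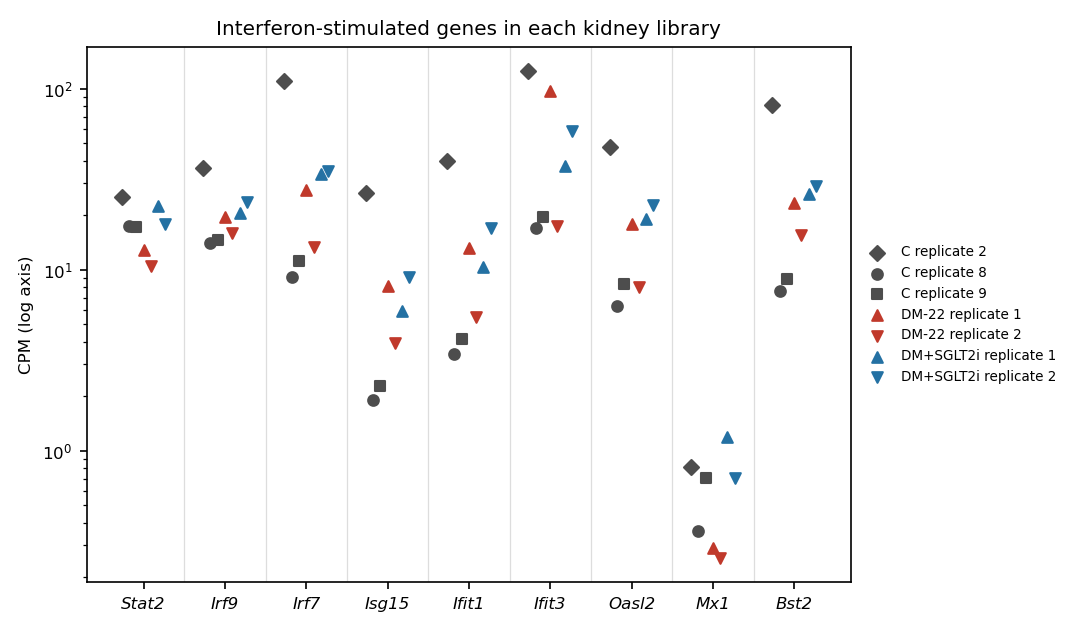
CPM of the 9 members (logarithmic vertical axis) in each of the 7 kidney libraries, with 1 symbol per library and grey, red and blue for C, DM-22 and DM+SGLT2i. Control replicate 2 is the highest library for 8 of the 9 genes, and for Irf7 it reaches 110 CPM, in comparison with 9.12 and 11.2 CPM in the other controls.

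The first group of members are the transcription factors. Stat2 (chr10:128270559-128292849, plus strand), the ISGF3 subunit that carries the transactivation domain, was measured at 25.3, 17.4 and 17.1 CPM in control replicates 2, 8 and 9. In DM-22 mice it stood at 12.8 and 10.5 CPM, and in DM+SGLT2i mice at 22.6 and 17.8 CPM. Both DM-22 libraries lay below all 3 controls and below both DM+SGLT2i libraries, whereas the DM+SGLT2i libraries lay within the range of the controls. Stat2 had the smallest standard error of the tested members with all controls, and its group means were 20.0 ± 4.63 CPM in controls (SD, n = 3), 11.6 ± 1.65 CPM in DM-22 and 20.2 ± 3.39 CPM in DM+SGLT2i mice (SD, n = 2 each). Its log2 fold change on CPM + 0.5, the scale of all tests below, was -0.74 (SE 0.23) for DM-22 versus C, with a limma p-value of 0.0157 and an adjusted p-value of 0.804. For DM+SGLT2i versus DM-22 it was 0.77 (SE 0.25), with a limma p-value of 0.0196 and an adjusted p-value of 0.881. Neither difference therefore passed the threshold across all genes.

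Irf9 (chr14:55603571-55610030, plus strand) encodes the DNA-binding subunit of ISGF3. It was measured at 36.7, 14.0 and 14.6 CPM in control replicates 2, 8 and 9, at 19.5 and 15.9 CPM in DM-22 and at 20.5 and 23.7 CPM in DM+SGLT2i mice. All 4 diabetic libraries fell between control replicate 2 and the other controls, and the DM+SGLT2i libraries were both above the DM-22 libraries. Irf9 overlaps Rnf31 on the same strand, and 0.85% of its 75-base words also occur in Rnf31.

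Irf7 (chr7:141262706-141266481, minus strand), the factor that amplifies interferon production, showed a much wider range. It reached 110 CPM in control replicate 2, whereas it stood at 9.12 and 11.2 CPM in control replicates 8 and 9. The diabetic libraries were intermediate, with 27.5 and 13.3 CPM in DM-22 and 33.7 and 35.2 CPM in DM+SGLT2i mice. The DM+SGLT2i libraries differed little from each other and both exceeded the DM-22 libraries. Irf7 overlaps Phrf1 on the opposite strand. The strand setting of the counting is not given in the sources used here, and reads of both genes may be mixed.

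The second group of members are antiviral effectors. Isg15 (chr4:156199424-156200818, minus strand), a ubiquitin-like modifier that is attached to many proteins, had the steepest contrast among the controls, with 26.6 CPM in replicate 2 and 1.89 and 2.29 CPM in replicates 8 and 9. It was measured at 8.15 and 3.93 CPM in DM-22 and at 5.93 and 9.16 CPM in DM+SGLT2i mice. All 4 diabetic libraries lay between control replicate 2 and the other controls, and the diabetic groups overlapped.

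Ifit1 and Ifit3 lie near each other on chromosome 19 (chr19:34640871-34650009 and chr19:34583531-34588731, both on the plus strand). Both encode tetratricopeptide proteins of the antiviral response, and the gene Ifit3b lies between them (chr19:34607970-34613401). Ifit1 stood at 39.9, 3.43 and 4.12 CPM in the controls, at 13.2 and 5.46 CPM in DM-22 and at 10.3 and 16.9 CPM in DM+SGLT2i mice. Ifit3 stood at 125, 17.0 and 19.6 CPM in the controls, at 96.8 and 17.4 CPM in DM-22 and at 37.7 and 58.4 CPM in DM+SGLT2i mice. For both genes the diabetic groups overlapped, and for Ifit3 the first DM-22 library was 5.55-fold above the second, the largest gap within a diabetic group among the members. The value of Ifit3 is uncertain because 41.1% of its 75-base words are shared with its paralog Ifit3b. Ifit3b followed the same order of high and low libraries at 77.6, 11.1 and 12.9 CPM in the controls, 60.0 and 10.5 CPM in DM-22 and 23.3 and 35.3 CPM in DM+SGLT2i mice. For Ifit1, 5.19% of the words are shared with Ifit1bl2.

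Oasl2 (chr5:114896936-114912234, plus strand) encodes a protein related to the oligoadenylate synthetases, the producers of the activator of RNase L. It was measured at 47.7, 6.27 and 8.33 CPM in the controls, at 17.8 and 8.07 CPM in DM-22 and at 19.2 and 22.7 CPM in DM+SGLT2i mice. The DM+SGLT2i libraries were above both DM-22 libraries, and the second DM-22 library lay among the low controls.

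Bst2 (chr8:71534255-71537456, minus strand), or tetherin, is a membrane protein that holds budding virions at the cell surface. It stood at 81.4, 7.62 and 8.93 CPM in the controls, at 23.3 and 15.5 CPM in DM-22 and at 26.1 and 29.1 CPM in DM+SGLT2i mice. The order of groups was complete apart from control replicate 2, since both DM+SGLT2i libraries exceeded both DM-22 libraries, which in turn exceeded control replicates 8 and 9.

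Mx1 (chr16:97447035-97462907, minus strand) encodes a dynamin-like GTPase active against influenza virus, and C57BL/6 mice, like many laboratory strains, carry an allele with a deletion in the coding sequence. It was the scarcest member, at 0.806, 0.358 and 0.705 CPM in the controls, 0.288 and 0.254 CPM in DM-22 and 1.19 and 0.704 CPM in DM+SGLT2i mice. These values correspond to between 11 and 61 reads per library. The DM-22 libraries were the lowest 2 libraries and, unlike in the other members, control replicate 2 was not the highest library. Mx1 did not reach 1 CPM in 2 libraries and was therefore left out of the tests, so that 8 members entered them together with all other genes that reached it, 13976 in total.

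The control libraries differed widely among themselves. Control replicate 2 was the highest of the 7 libraries for all 8 tested members, whereas this held for 16.4% of all tested genes. It exceeded the mean of control replicates 8 and 9 by a ratio of 12.7 for Isg15, 10.9 for Irf7, 10.6 for Ifit1, 9.84 for Bst2, 6.83 for Ifit3, 6.53 for Oasl2, 2.56 for Irf9, 1.52 for Mx1 and 1.46 for Stat2. Control replicates 8 and 9 were close to each other, and for 5 of the 8 members they were the lowest 2 libraries (14.4% of all tested genes). Within the DM-22 group replicate 1 was above replicate 2 for all 9 members (48.0% of all tested genes). With this spread the SD of Irf7 in controls was 57.9 CPM around a mean of 43.6 CPM (n = 3).

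Markers of leukocytes and of nephron segments also differed between these libraries. The summed level of 10 macrophage markers was 799 CPM in control replicate 2, in comparison with 197 and 201 CPM in control replicates 8 and 9. The same sum was 419 and 269 CPM in DM-22 and 410 and 466 CPM in DM+SGLT2i mice, and 9 of the 10 markers were highest in control replicate 2. The 10 T and NK cell markers summed to 14.9 CPM in control replicate 2 and to between 6.24 and 11.7 CPM in the other 6 libraries. The 7 markers of plasmacytoid dendritic cells, which are strong producers of interferon, summed to between 43.3 and 66.0 CPM in all libraries, with 52.5 CPM in control replicate 2. Of these markers, 3 stayed under 1 CPM in every library. The ratio of control replicate 2 to the other controls was 1.01 for the sum. Over the 3 markers that passed the filter its median was 2.14, and 1 of them was highest in control replicate 2. The 5 B cell markers summed to between 2.07 and 5.32 CPM and the 4 listed neutrophil markers to between 2.13 and 5.98 CPM.

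The tissue of origin was evident from kidney markers, all of which were detected, but the segments were unequally represented. The 5 proximal tubule markers summed to 5416 CPM in control replicate 2 and 5634 CPM in DM-22 replicate 1, as against 9279 to 14874 CPM in the other 5 libraries. Conversely, the 5 markers of the thick ascending limb and distal tubule summed to 13161 CPM in DM-22 replicate 1 and to between 4509 and 8584 CPM in the others. Endothelial markers summed to between 354 and 416 CPM, podocyte markers to between 299.8 and 771 CPM and collecting duct markers to between 422 and 974 CPM. In such bulk RNA, fewer cells of a type and less RNA per cell cannot be told apart. The part of these shifts in the levels of the interferon-stimulated genes was not tested.

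**Figure D3:**
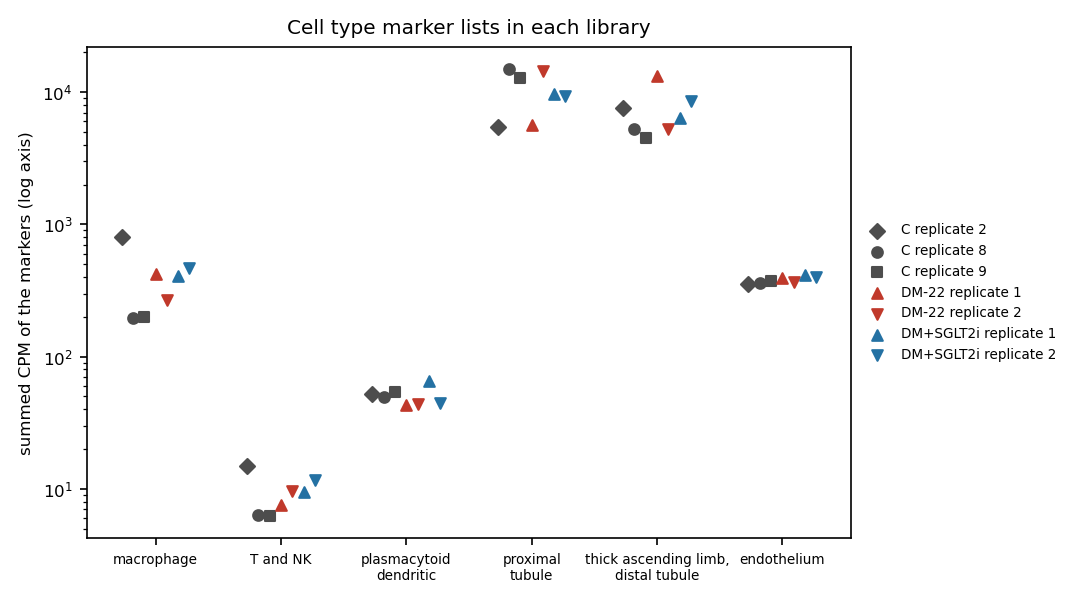
Summed CPM (logarithmic vertical axis) of 6 cell type marker lists in each library, with the same symbols as for the members. The macrophage sum is 799 CPM in control replicate 2 and between 197 and 466 CPM elsewhere, and endothelial markers vary little, between 354 and 416 CPM.

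Diabetic mice without the inhibitor were then compared with all 3 controls, the comparison that addresses the effect of hyperglycemia. None of the 8 tested members passed an adjusted p-value of 0.05 in limma, and neither did any other gene (0.0% of all tested genes). With a p-value under 0.05 before adjustment the count was 1 member, Stat2 (4.47% of all genes), and limma voom on recovered reads gave 0 and 1 members as well. Stat2 was also the 1 tested member for which every DM-22 library lay below every control, a pattern seen in 9.29% of all genes. Mx1, which was not tested, had the same order. The fitted log2 fold changes of the other 7 members ranged from -0.24 for Irf7 to 0.24 for Ifit3, with an interval for Irf7 of -2.69 to 2.21. The median over the 8 members was -0.08, beside a median of 0.00 over all tested genes. The intervals of all members except Stat2 and Irf9 were compatible with differences of over 3-fold in either direction, so that a change of this size could not have been resolved.

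Treated diabetic mice were next compared with the same controls, which tests for differences that remain after the inhibitor. Again 0 of 8 members passed the adjusted threshold in limma, beside 0.0% of all tested genes. No member had a raw p-value under 0.05 in limma or in limma voom, beside 1.08% of all genes in limma. All 8 fitted log2 fold changes were above 0, from 0.03 (SE 0.23) for Stat2 to 0.61 (SE 0.96) for Bst2, with a median of 0.53 as compared with -0.01 over all tested genes. Of the 8 tested members, 0 lay above all controls and 0 below all controls in both DM+SGLT2i libraries. Among all 13976 tested genes 793 lay above and 921 below.

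The direct comparison of the diabetic groups asks what the inhibitor changed, and it does not involve the controls except for the shared estimate of spread. All 8 log2 fold changes of DM+SGLT2i versus DM-22 were above 0, with 0.83 (SE 1.12) for Irf7, 0.77 (SE 0.91) for Oasl2, 0.77 (SE 0.25) for Stat2, 0.60 for Ifit1, 0.52 for Bst2, 0.35 for Isg15, 0.32 for Irf9 and 0.18 for Ifit3. The median was 0.56, beside 0.00 over all tested genes. In limma 0 members passed the adjusted threshold (0.0% of all tested genes) and 1, Stat2, had a raw p-value under 0.05 (3.91% of all genes), with the same counts in limma voom. For 5 of the 8 tested members, namely Stat2, Irf9, Irf7, Oasl2 and Bst2, both treated libraries exceeded both untreated ones, as compared with 21.4% of all tested genes. The same order held for Mx1, which was not tested. It also held for 8 of the 10 macrophage markers (median log2 fold change 0.37), with 0 in the opposite order. Of the 21 interferon gamma-responsive genes it held for 13 (median 0.32), again with 0 in the opposite order. The part of these in the difference of the members was not tested. Several of the member values rested on single libraries. For Ifit3, without DM-22 replicate 2 the log2 fold change was -1.04 and without DM-22 replicate 1 it was 1.40. On leaving out the same libraries, that of Ifit1 was 0.001 and 1.20, that of Oasl2 0.22 and 1.32, that of Irf7 0.32 and 1.34 and that of Bst2 0.24 and 0.81. For Isg15 they were -0.13 and 0.83, and for Irf9 0.17 and 0.46. The value of Stat2 ranged between 0.60 and 0.93 on leaving out any 1 library.

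**Figure D4:**
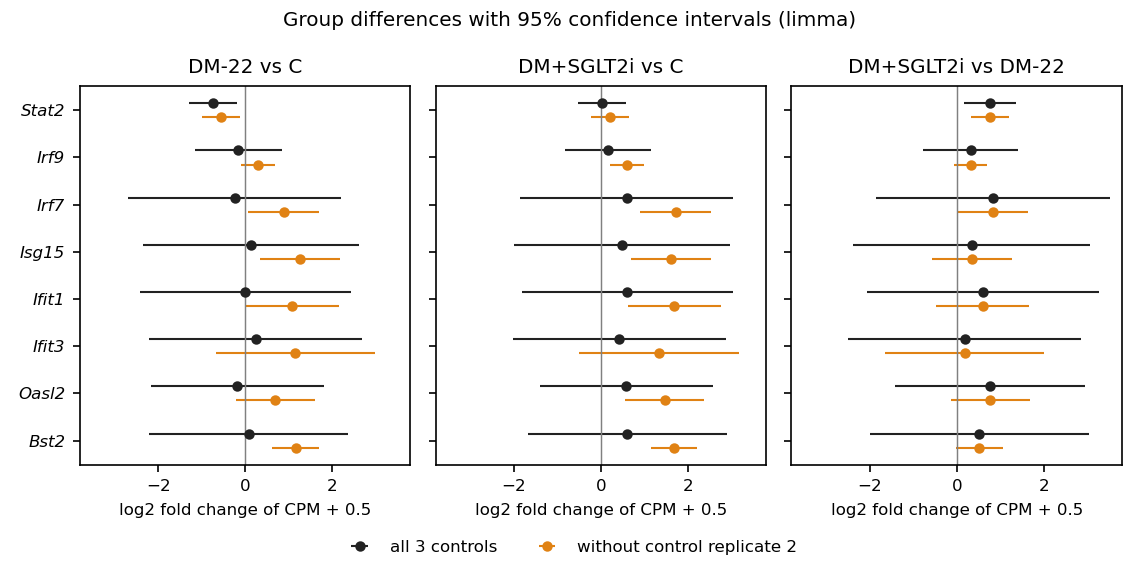
Log2 fold changes (CPM + 0.5) of the 8 tested members in the 3 group comparisons from limma, with 95% confidence intervals, for all 3 controls (black) and without control replicate 2 (orange). Stat2 has the narrowest interval with all controls, from -1.28 to -0.19 for DM-22 versus C. The intervals of all 8 members shrink when control replicate 2 is left out.

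Because control replicate 2 stood apart, both comparisons with controls were repeated without it, which leaves 2 controls and estimates the spread from 6 mice. The labels give no reason to leave the library out, and the result with all controls remains the main one. It was singled out by the values of the members themselves, and leaving out their highest control raises their fold changes by construction. The shares over all genes were not chosen in this way, so the member counts without this library cannot be weighed against them on equal terms. Against control replicates 8 and 9 the median log2 fold change of the members in DM-22 mice was 0.99, and 7 of 8 were above 0. Bst2 had a log2 fold change of 1.16 (SE 0.22, limma adjusted p-value 0.0825) and Isg15 one of 1.26 (SE 0.37, limma adjusted p-value 0.125). With a p-value under 0.05 before adjustment, 4 members were higher (Irf7, Isg15, Ifit1 and Bst2) beside 10.4% of all genes, and 1 member, Stat2, was lower beside 14.8% of all genes. Both DM-22 libraries exceeded both controls for 5 of 8 members, as against 29.9% of all genes. None of the members passed the adjusted threshold in limma, which 0.0143% of all genes did. The direction of Irf7, Irf9 and Oasl2 turned from below to above 0, with values of 0.89, 0.29 and 0.70.

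In the same way, DM+SGLT2i mice had a median log2 fold change of 1.54 for the members against control replicates 8 and 9. All 8 members were higher in both treated libraries than in both controls, a pattern seen in 28.2% of all genes. Irf7 had a log2 fold change of 1.72 (SE 0.33), Ifit1 of 1.69 (SE 0.43) and Bst2 of 1.68 (SE 0.22), and Stat2 had the smallest, 0.21 (SE 0.17). A raw p-value under 0.05 was reached by 6 members, namely Irf9, Irf7, Isg15, Ifit1, Oasl2 and Bst2, beside 8.73% of all genes in this direction. The lowest adjusted p-value of a member in limma was 0.0724, for Bst2, so that 0 of 8 passed, whereas 0.122% of all genes did. In the mean, DM+SGLT2i mice stood 3.61-fold above control replicates 8 and 9 for Isg15, 3.60-fold for Ifit1, 3.39-fold for Irf7 and 3.34-fold for Bst2. Both comparisons share these controls and are not independent of each other. In the same fit 3 of the 10 macrophage markers passed the adjusted threshold in this comparison, C1qa, Laptm5 and Ctss, with log2 fold changes of 1.50, 1.37 and 1.37. Their part in the difference of the members was not tested. Leaving out control replicate 2 did not change the fold changes of DM+SGLT2i versus DM-22, only the shared spread. The SE was then 0.33 for Irf7 and 0.22 for Bst2. In this fit 2 members, Irf7 and Stat2, were higher with a raw limma p-value under 0.05, and 0 were lower. Of all 13976 genes 959 were higher and 544 lower. These counts carry the same limit of selection, and 0 members passed the adjusted threshold.

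The rest of the pathway was then examined with 5 lists. Of 21 symbols of interferon genes 1 was matched, Ifnz, with between 0 and 0.234 CPM, and it was too low to be tested. Of the receptor chains, Ifnar1 ranged from 36.6 to 47.3 CPM and Ifnar2 from 12.2 to 18.2 CPM over the 7 libraries. The kinases Jak1 (152 to 198 CPM) and Tyk2 (18.7 to 23.6 CPM) varied little as well. Over the 16 tested genes of receptors and signaling the median ratio of control replicate 2 to the other controls was 1.16, and 7 of 16 were highest in that library. Irf1, a factor induced by interferon gamma, stood at 27.7 CPM in control replicate 2 and between 13.8 and 20.4 CPM elsewhere.

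No gene of this list passed the adjusted limma threshold in any comparison with all controls. Beside 4.47% (DM-22) and 1.08% (DM+SGLT2i) of all genes in either direction, 1 gene in each comparison with controls had a raw p-value under 0.05. These were Ifnlr1, the receptor chain for interferon lambda, with -0.64 (SE 0.26) for DM-22 versus C, and Il10rb, the other chain of that receptor, with -0.42 (SE 0.13) for DM+SGLT2i versus C. Their limma adjusted p-values were 0.804 and 0.9997. The next genes by p-value were Irf1 with -0.46 in the first and Ifngr1, a chain of the interferon gamma receptor, with 0.15 in the second comparison, and in the comparison of diabetic groups Il10rb (-0.29) and Ifnlr1 (0.51). The median of the list was -0.11 for DM-22 and -0.01 for DM+SGLT2i mice against all controls, and -0.04 and 0.05 without control replicate 2. In the latter fit 1 gene was higher and 3 were lower in DM-22 with a raw limma p-value under 0.05, beside 10.4% and 14.8% of all genes. In DM+SGLT2i mice 1 was higher and 2 lower, beside 8.73% and 9.14% of all genes. None of the list passed the adjusted threshold without control replicate 2.

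The 58 other effectors of type I interferon shared the contrast among the controls in most cases. Of these, 43 were highest in control replicate 2, and their median ratio to the other controls was 2.14. No effector passed the adjusted limma threshold in any of the 3 comparisons with all controls. With a raw p-value under 0.05, 7 were lower and 0 higher in DM-22 versus C, beside 3.28% lower and 1.19% higher of all genes. In DM+SGLT2i versus DM-22, 6 were higher and 0 lower, beside 2.25% higher and 1.66% lower of all genes. Their median log2 fold changes were -0.14 for DM-22 versus C, 0.20 for DM+SGLT2i versus C and 0.41 for DM+SGLT2i versus DM-22. In the last comparison 32 of 58 effectors were higher in both treated libraries, beside the 21.4% of all genes given above. The counts against controls turned without control replicate 2. In DM-22 mice 16 effectors then had a raw p-value under 0.05 in the higher and 6 in the lower direction (median 0.34), beside 10.4% and 14.8% of all genes. In DM+SGLT2i mice 28 were higher and 0 lower (median 0.56), beside 8.73% and 9.14% of all genes. For DM+SGLT2i versus DM-22 the same fit gave 22 higher and 0 lower, beside 959 and 544 of all 13976 genes.

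The effectors with the lowest p-values showed the order of groups seen for Stat2. Rnf213, a large ubiquitin ligase, stood at 61.1, 72.9 and 69.5 CPM in the controls, at 34.3 and 38.8 CPM in DM-22 and at 70.7 and 56.0 CPM in DM+SGLT2i mice. Parp10, a mono-ADP-ribosyltransferase, stood at 41.7, 41.1 and 39.9 CPM, at 20.4 and 29.2 CPM and at 48.5 and 39.3 CPM in the same order. In both, the DM-22 libraries were below all others and control replicate 2 did not stand out. Their log2 fold changes for DM-22 versus C were -0.88 (SE 0.16) and -0.73 (SE 0.19), each with a limma adjusted p-value of 0.804, and for DM+SGLT2i versus DM-22 they were 0.78 (SE 0.17) and 0.83 (SE 0.20), each with an adjusted p-value of 0.881. Eif2ak2, the RNA-activated kinase PKR, had 0.35 (SE 0.19) and Mndal -0.40 (SE 0.27) for DM+SGLT2i versus C. Without control replicate 2 a single effector passed, namely Lgals3bp, a secreted galectin-binding glycoprotein, in DM+SGLT2i versus C. It stood at 364, 48.2 and 55.2 CPM in the controls, at 118 and 106 CPM in DM-22 and at 222 and 198 CPM in DM+SGLT2i mice, and its log2 fold change against control replicates 8 and 9 was 2.01 (SE 0.14, limma adjusted p-value 0.0264). With all controls the same difference was 1.08 (SE 0.83).

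Genes that respond chiefly to interferon gamma were mostly highest in control replicate 2 as well. Of the 21 tested, 19 were highest in control replicate 2, and the median ratio to the other controls was 2.71. None passed the adjusted limma threshold, while 2 had a raw p-value under 0.05 in DM-22 versus C, both lower, beside the 3.28% of all genes given above. Without control replicate 2 the direction of these counts turned. In DM-22 mice 10 genes were then higher and 2 lower (median 0.38), beside 10.4% and 14.8% of all genes. In DM+SGLT2i mice 14 were higher and 0 lower (median 0.64), beside 8.73% and 9.14% of all genes. The medians with all controls were -0.11 and 0.18, and no gene of the list passed the adjusted threshold without control replicate 2 either. The 2 genes that were lower in DM-22 mice with all controls were Nlrc5 and Ciita, the transactivators of MHC class I and class II genes. Nlrc5 stood at 5.26, 3.41 and 4.87 CPM in the controls, at 2.21 and 1.29 CPM in DM-22 and at 5.81 and 3.47 CPM in DM+SGLT2i mice, and Ciita at 7.06, 5.98 and 5.53 CPM, at 2.70 and 3.47 CPM and at 8.73 and 5.33 CPM. Both were thus lowest in the DM-22 libraries, with log2 fold changes of -1.16 (SE 0.33) and -0.90 (SE 0.26) versus C and of 1.18 (SE 0.36) and 1.04 (SE 0.28) for DM+SGLT2i versus DM-22. The peptide transporter genes Tap1 and Tap2 had the lowest p-values in DM+SGLT2i versus C, with 0.52 (SE 0.53) and 0.21 (SE 0.24).

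Nucleic acid sensors and their adaptors, which lie upstream of interferon production, differed less than the effectors among the controls. Between the diabetic groups this did not hold to the same degree. Their median for DM+SGLT2i versus DM-22 was 0.36, beside 0.41 for the effectors and 0.32 for the interferon gamma-responsive genes. In both treated libraries 8 were higher and 1 was lower, beside 2994 and 2802 of all 13976 genes. Of 17 tested genes, 7 were highest in control replicate 2, with a median ratio of 1.32, and none passed the adjusted limma threshold with all controls or without control replicate 2. Their median was -0.09 for DM-22 and 0.12 for DM+SGLT2i mice against all controls, and -0.08 and 0.25 without control replicate 2. In the latter fit 1 gene was higher and 4 were lower in DM-22 with a raw limma p-value under 0.05, beside 10.4% and 14.8% of all genes. In DM+SGLT2i mice 6 were higher and 3 lower, beside 8.73% and 9.14% of all genes. The lowest p-values for DM-22 versus C belonged to the adaptor Traf3 (-0.35, SE 0.17) and the transcription factor Irf5 (-0.52, SE 0.27). Irf5 (-0.46, SE 0.27) and Irf3 (-0.26, SE 0.15), the factor that starts interferon beta transcription, had them for DM+SGLT2i versus C. Traf3 (0.49, SE 0.18, unadjusted limma p-value 0.0336) and Ddx58 (0.70, SE 0.31), the gene of the RNA sensor RIG-I, had them for DM+SGLT2i versus DM-22. Ddx58 stood at 47.8, 25.7 and 25.3 CPM in the controls, at 24.7 and 25.0 CPM in DM-22 and at 41.7 and 39.9 CPM in DM+SGLT2i mice, so that the treated libraries lay apart from all others except control replicate 2.

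**Figure D5:**
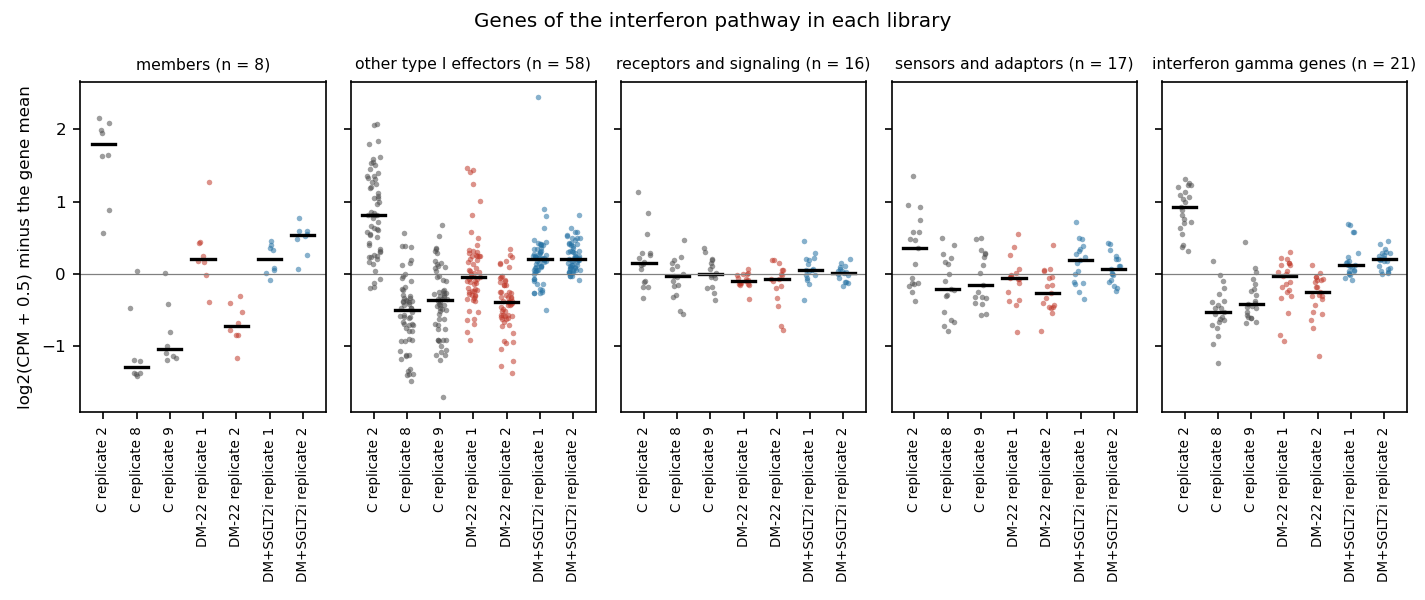
Genes of the interferon pathway in each library, as log2(CPM + 0.5) minus the mean of the gene over the 7 libraries, with 1 point per gene and a black line for the median. The median of the members is 1.80 in control replicate 2 and -1.29 and -1.05 in the other controls, whereas the medians of receptors and signaling lie between -0.09 and 0.15.

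The ISRE core was more frequent among the promoters of the effector lists and of the interferon genes than in the other lists. It was found in 23 of 51 other type I effectors with a window (45.1%) and in 12 of 21 interferon gamma genes (57.1%), in comparison with 3 of 17 sensors and adaptors and 2 of 15 receptor and signaling genes. The share over all genes was 3.99%, as given above. Lists of interferon-stimulated genes are partly known from such elements, and the count is a description of their sequence.

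Genes outside these lists that followed the members most closely were identified by the correlation with a mean profile on log2(CPM + 0.5). This profile was taken over all 9 members, including Mx1, which was not tested. The profile was 1.47 in control replicate 2, -0.97 and -0.74 in the other controls, 0.21 and -0.67 in DM-22 and 0.25 and 0.45 in DM+SGLT2i mice. The 5 genes with the highest Pearson r over the 7 libraries were Apol9b (0.997), Apol9a (0.994), Lbp (0.993), Efemp2 (0.991) and Cd109 (0.989). Their r remained between 0.975 and 0.994 over the 6 libraries without control replicate 2. These libraries share their depth and composition with the members, and r is given as a description. Apol9a and Apol9b are near-identical apolipoprotein L genes whose reads may be split uncertainly. Apol9b ranged from 1.37 CPM in control replicate 8 to 19.2 CPM in control replicate 2, and Lbp, which encodes the lipopolysaccharide-binding protein, from 3.77 to 17.2 CPM in the same libraries. Efemp2 encodes an elastic fiber protein and Cd109 a membrane-anchored glycoprotein. Among the members r with the shared profile, to which each contributes, was 0.998 for Oasl2, 0.997 for Irf7, 0.991 for Ifit1, 0.986 for Irf9, 0.980 for Isg15, 0.980 for Bst2 and 0.918 for Ifit3. Stat2 followed it least, with 0.586 over the 7 libraries and 0.276 without control replicate 2.

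For context, Cdkn1a, the gene of p21 on which the study centers, was also unequal among the controls. It stood at 72.7, 4.63 and 5.36 CPM in control replicates 2, 8 and 9, at 52.6 and 123 CPM in DM-22 and at 78.6 and 77.3 CPM in DM+SGLT2i mice. Control replicate 2 thus lay among the diabetic libraries for Cdkn1a, whereas it lay above them for 8 of the 9 members. Unlike the members, Cdkn1a was higher in DM-22 replicate 2 than in replicate 1.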

How the data were processed

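Polyadenylated kidney RNA of 7 mice was sequenced, with groups taken from the labels. The authors deposited log2 values for 17537 genes, that is read counts relative to library size (CPM) with TMM factors from edgeR, after bcl2fastq, FastQC, Trim Galore and STAR on mm10 as the notes of the submitters list them. Neither the counting tool nor its strand setting is given in the sources used here. The design had assumed CPM, so the log2 values were turned back to CPM by subtracting the shared floor of 0.0395 CPM. Whole reads were recovered for 100% of values within 0.1 read, and 1 read equals 0.0180 to 0.0231 CPM, far below the filter. 0 columns of values were left out.

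The 13976 genes that reached 1 CPM in 2 or more libraries were tested on log2(CPM + 0.5) with limma 3.58.1 in R 4.3.3 (lmFit and eBayes with trend), 3 groups fitted together, two-sided, Benjamini-Hochberg adjustment, threshold 0.05. The test was also run on simulated data with the same setting of the spread for all genes and no library that stands apart. That run therefore does not cover the situation of control replicate 2. Alternatives were leaving out each library, pseudocounts of 0.1 and 2 CPM, all listed genes, median-of-ratios scaling, 2 groups only, limma voom and a replicate block. Replicate numbers were not found to pair mice, as the deviations of equally numbered diabetic libraries correlated at -0.04 over 13976 genes. Nothing in the labels names batches. Positions, exon lengths and shared 75-base words are from GENCODE M21 on GRCm38, where all 17537 identifiers matched, and promoters are from RefSeq. Python 3.11.15 with pandas 2.3.3, scipy 1.17.1 and matplotlib 3.10.9 was used for the rest.

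The members and lists were chosen with earlier results of these data known. Named genes are the members, the pathway genes past the threshold or with the 2 lowest p-values per list and comparison, the receptor and transcription factor genes, the interferons, the 5 genes most alike and Cdkn1a, of which 1 is not reported here. Ifit3b, Ifit1bl2, Rnf31, Phrf1 and the macrophage markers were named for their bearing on members.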

Additional observations from a re-analysis of the deposited data

Results flagged for a closer look

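Mx1 and Irf9 lay on opposite sides of the control mean in the diabetic groups on the log2(CPM + 0.5) scale. For Mx1, both DM-22 libraries (0.288 and 0.254 CPM) were below the control mean of 0.623 CPM. Both DM+SGLT2i libraries (1.19 and 0.704 CPM) were above it, and the diabetic groups differed by 0.89 on the log2(CPM + 0.5) scale. With 11 to 61 reads per library, this difference was not tested in the filtered fit. When all listed genes were fitted, it had a limma p-value of 0.0151 and an adjusted p-value of 0.892. For Irf9 the order did not hold in CPM, where DM+SGLT2i replicate 1 (20.5 CPM) was below the control mean of 21.8 CPM. Its log2 fold changes versus C were -0.15 for DM-22 and 0.16 for DM+SGLT2i mice.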

How the results depend on the processing

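With 2 or 3 mice per group the results turned on single libraries. No member passed the adjusted threshold under any alternative, and the lowest adjusted p-value among them was 0.0724. Of 320 fold changes under alternatives, 31 changed sign, 29 of them on leaving out 1 library, and the cause was not tested. The 2 others were Ifit1 (-0.069) and Isg15 (-0.011) for DM-22 versus C at a pseudocount of 2 CPM. Scaling, the lower pseudocount, all listed genes, voom and fitting only 2 groups changed no sign. The replicate block gave a median of 0.56 and 0 calls for DM+SGLT2i versus DM-22 and changed no call.

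When each library was left out, log2 fold changes for DM-22 versus C ranged from -0.51 to 1.16 for Bst2, -0.60 to 1.08 for Ifit1, -0.98 to 1.46 for Ifit3, -0.49 to 1.26 for Isg15, -0.88 to 0.89 for Irf7, -0.39 to 0.29 for Irf9 and -0.73 to 0.70 for Oasl2, and their median from -0.67 (without DM-22 replicate 1) to 0.99 (without control replicate 2). For DM+SGLT2i versus C they ranged from -0.082 to 1.34 for Ifit3, -0.043 to 1.72 for Irf7, -0.073 to 0.61 for Irf9, -0.14 to 1.61 for Isg15 and -0.14 to 0.21 for Stat2, and their median from -0.049 (without control replicate 8) to 1.54 (without control replicate 2). For DM+SGLT2i versus DM-22 the range was -1.04 to 1.40 for Ifit3 and -0.13 to 0.83 for Isg15, and the median went from 0.20 (without DM-22 replicate 2) to 1.05 (without DM-22 replicate 1). With 1 library left in a group, that library was assumed to vary like the others.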
